A study of Mus musculus with 4 samples.

Results

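The genes of cholesterol and fatty acid synthesis were followed in the transcriptome of mouse macrophages with and without a deletion of G3bp1. A total of 33 genes were taken by symbol from the 34745 genes of the count table, and all 33 were matched. They comprised 19 sterol enzymes (8 that carry acetyl-CoA through mevalonate to the isoprenoids, and 11 that lead from these through squalene to cholesterol), 8 fatty acid enzymes, and 6 genes of sterol sensing and transport. All 33 were kept by the filter on low counts, which left 12418 genes to be tested.

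The cells were bone marrow-derived macrophages by the study's text, and GEO's labels call them macrophages. The WT group came from G3bp1 f/f mice, whose G3bp1 gene is flanked by loxP sites but not cut. The KO group came from G3bp1 mac-/- mice, which carry the same floxed gene and a Cre recombinase under the Lyz2 promoter, active in the myeloid lineage (monocytes, macrophages and granulocytes). G3BP1 is the RNA-binding protein on which stress granules, cytoplasmic condensates of protein and untranslated mRNA, assemble. Both groups grew in DMEM with serum, and no stimulus is given for them in the labels. The age of the donor mice of these cultures was not given in the sources used here. Each group had 2 libraries, numbered 1 and 2 in the labels. As nothing states that they came from separate animals or cultures, p-values measure only the spread between these samples, which may be technical.

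Total gene counts lay between 16724241 and 19747909 per library, so that a count of 0 allowed a level of up to 0.152 to 0.179 CPM on the unscaled total (counting error only). Elsewhere CPM, the count scaled to a common library total, was computed after scaling by TMM, which sets the bulk of genes level between libraries. The targeted gene, G3bp1, had 1691 and 2875 counts (WT) and 1307 and 2296 counts (KO). Its log2 fold change was -0.61 (SE 0.40; quasi-likelihood adjusted p from edgeR, 0.904), and it ran from -1.03 without KO replicate 2 to -0.19 without WT replicate 2. The count covers the whole gene rather than the floxed exons, so it did not check the labels. The libraries differed by number as well as by genotype: the component that took 57.4% of the variance separated the numbers, and the next, with 34.3%, separated the genotypes. What the numbers stand for is not given in the labels.

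Cells make cholesterol and fatty acids from the same precursor, acetyl-CoA. Both routes are controlled by the SREBP transcription factors, which SCAP carries out of the endoplasmic reticulum when sterols are scarce and INSIG proteins hold back when sterols are plentiful. SREBP2, encoded by Srebf2, acts mainly on sterol genes, and SREBP1, encoded by Srebf1, mainly on fatty acid genes, the latter also under the oxysterol receptor LXR. In macrophages these routes supply the membrane needed for phagocytosis and respond to the lipids of engulfed cells.

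To show what the promoters of these genes hold, RefSeq windows on GRCm38.p6 (300 bases, from 250 before to 50 after each annotated start) were searched on both strands for a sterol regulatory element (TCACNCCAC), an NF-Y box (CCAAT) and a GC box (GGGCGG), the last being the core of an Sp1 site. Windows were found for 26 of the 33 genes and numbered 32, as some genes have several starts. Fdps, Sqle, Stard4, Fdft1, Scd1, Scd2 and Fads1 were not matched. The 6 promoters that follow were chosen to set sterol genes (Hmgcs1, Mvk and Nsdhl) beside fatty acid genes (Fasn, Elovl6 and Fads2). Each is 150 bases, written 5′ to 3′ on the strand of the gene, and capitals mark the matches to the 3 motifs on either strand. Their positions are chr13:119690201-119690350 on the plus strand for Hmgcs1, chr5:114444119-114444268 on the plus strand for Mvk, chrX:72918371-72918520 on the plus strand for Nsdhl, chr11:120824548-120824697 on the minus strand for Fasn, chr3:129532205-129532354 on the plus strand for Elovl6, and chr19:10101504-10101653 on the minus strand for Fads2. Each stretch ended just before the RefSeq start, except that of Elovl6, which left out the last 31 bases because the deposited gene model begins there.
Hmgcs1: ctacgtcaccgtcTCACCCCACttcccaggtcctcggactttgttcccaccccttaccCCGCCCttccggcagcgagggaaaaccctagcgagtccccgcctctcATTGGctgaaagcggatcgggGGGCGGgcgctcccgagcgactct
Mvk: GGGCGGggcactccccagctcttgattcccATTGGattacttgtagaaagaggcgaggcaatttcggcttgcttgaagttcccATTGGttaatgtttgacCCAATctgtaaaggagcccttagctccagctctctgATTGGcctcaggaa
Nsdhl: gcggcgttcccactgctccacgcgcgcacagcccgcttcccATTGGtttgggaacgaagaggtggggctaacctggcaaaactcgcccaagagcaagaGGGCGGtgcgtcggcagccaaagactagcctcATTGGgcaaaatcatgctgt
Fasn: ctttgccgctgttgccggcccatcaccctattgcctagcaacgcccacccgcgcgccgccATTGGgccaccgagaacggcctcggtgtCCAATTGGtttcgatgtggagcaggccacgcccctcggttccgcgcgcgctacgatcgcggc
Elovl6: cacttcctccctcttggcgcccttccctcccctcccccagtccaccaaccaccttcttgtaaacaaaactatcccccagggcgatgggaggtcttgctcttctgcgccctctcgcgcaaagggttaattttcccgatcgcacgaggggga
Fads2: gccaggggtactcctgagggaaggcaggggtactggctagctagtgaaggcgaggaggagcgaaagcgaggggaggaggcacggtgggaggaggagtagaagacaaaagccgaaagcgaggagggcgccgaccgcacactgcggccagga

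The Hmgcs1 stretch held the only sterol regulatory element found, which began 137 bases before the start. The element occurred in 1 of the 32 windows, against 1.24% of all 32851 windows in the table. NF-Y boxes were found in 15 of the 19 sterol enzyme windows (78.9%) and in 2 of the 5 fatty acid windows (40%), against 37.4% of all windows. GC boxes were found in 15 of the 19 sterol enzyme windows (78.9%) and in 2 of the 5 fatty acid windows (40%), against 35.7% of all windows. In the Fasn stretch a pair of NF-Y boxes on opposite strands overlap in CCAATTGG. The Elovl6 and Fads2 stretches held none of the 3 motifs, though the Fads2 window had a GC box that began 186 bases before the start, outside its stretch. These matches describe letters in short windows and do not show binding.

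The main comparison asked how the libraries labelled KO differed from those labelled WT. The 8 fatty acid enzymes had log2 fold changes above 0 and the 19 sterol enzymes had them on both sides of 0, with none of either called. All 8 fatty acid genes had both KO libraries above both WT libraries, against 20.0% of all tested genes and 3 of the 19 sterol enzymes. The median log2 fold change was 0.97 over the 8 fatty acid genes (from 0.25 to 1.67), 0.15 over the 19 sterol enzymes (from -0.22 to 0.57), 0.18 over the 6 sensing and transport genes, and 0.041 over all tested genes. The median of the fatty acid genes thus exceeded that of the sterol enzymes by 0.82 on the log2 scale. The same difference was 1.07 between the libraries numbered 1 and 0.43 between those numbered 2, where each number holds 1 library per genotype and has no error of its own.

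A gene was called where the adjusted p was under 0.05 and the log2 fold change was over 1 in size. By the quasi-likelihood test of edgeR, 0 of the 33 genes and 0% of all tested genes were called. At an unadjusted p under 0.05, 6 of the 33 genes were higher in KO, all of them fatty acid enzymes, against 4.64% of all tested genes, and 0 were lower. The DESeq2 Wald test called 1 of the 33 genes, Scd2, against 1.46% of all tested genes, and the edgeR exact test also called Scd2 alone, against 1.84%. None of the 19 sterol enzymes was called by any of these tests. Counts and medians over a list are set beside those of all tested genes and carry no test of their own.

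**Figure D1:**
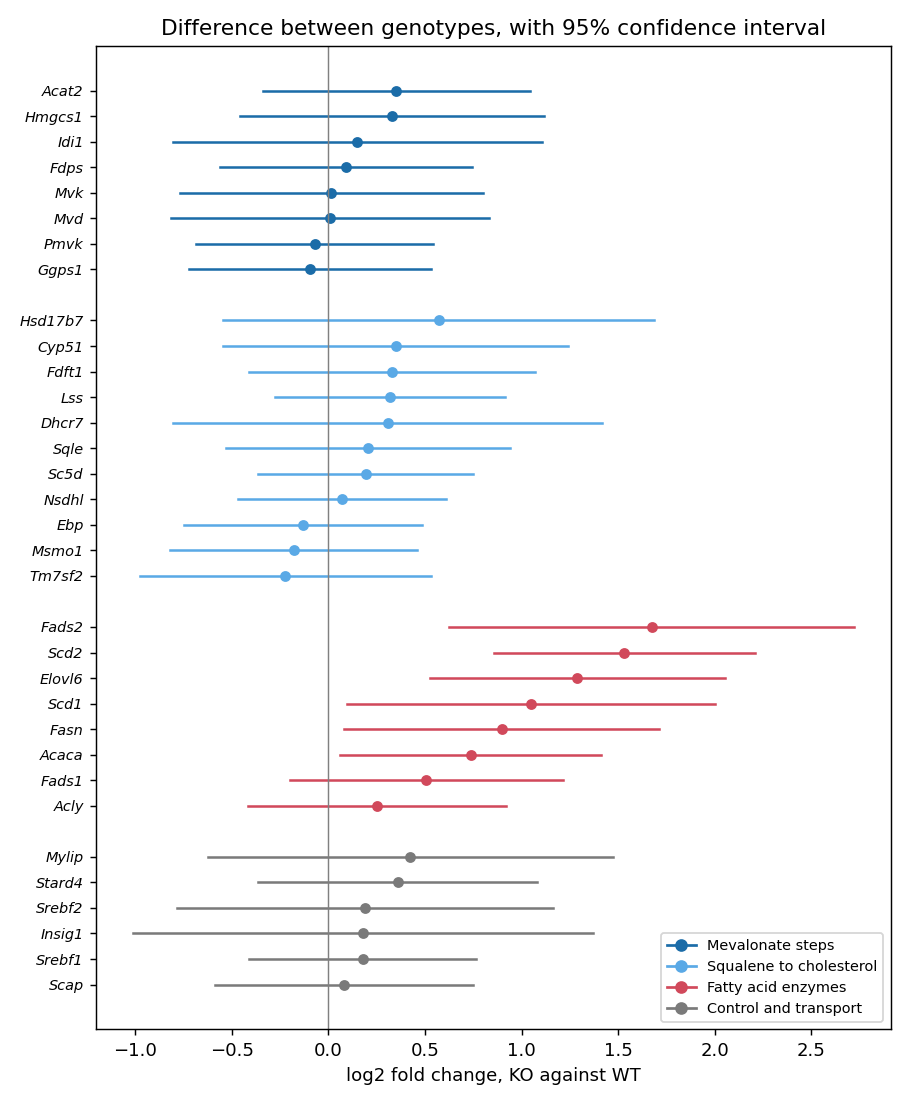
Log2 fold change of KO against WT (horizontal axis) for each of the 33 genes, grouped by role, from the edgeR quasi-likelihood fit. Points are estimates and bars 95% confidence intervals, and the interval lies above 0 for 6 of the 8 fatty acid genes and holds 0 for all 19 sterol enzymes.

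Among the fatty acid enzymes, the 4 largest differences in the main fit were in Fads2, Scd2, Elovl6 and Scd1, which lengthen and desaturate fatty acids. Scd2 (ENSMUSG00000025203, chromosome 19, 44293676 to 44306864 on GRCm38, plus strand) encodes a stearoyl-CoA desaturase, which places the first double bond into saturated fatty acids. It had counts of 184 and 164 in WT, against 678 and 516 in KO, so that both KO libraries lay far above both WT libraries. The level was 10.8 ± 0.743 in WT against 31.3 ± 7.19 CPM in KO (mean ± SD, n = 2 each), 2.89-fold higher. The log2 fold change was 1.53 (SE 0.27, 95% interval from 0.86 to 2.21), and edgeR gave it an adjusted p of 0.251. Between the libraries numbered 1 the log2 ratio (KO to WT) was 1.68, and between those numbered 2 it was 1.35.

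Scd1 (ENSMUSG00000037071), a nearby paralogue for the same reaction on chromosome 19 (44394451 to 44407709, minus strand), was expressed less. It had 35 and 46 counts in WT libraries against 116 and 83 in KO libraries, with no overlap. The level was 2.52 ± 0.516 in WT against 5.22 ± 1.42 CPM in KO (mean ± SD, n = 2 each), and the log2 fold change was 1.05 (SE 0.37, edgeR adjusted p 0.676). Its log2 ratio was 1.51 between the libraries numbered 1 and 0.54 between those numbered 2. Of the 50-base stretches of its transcripts, 4.56% also occur in other genes, most often Scd3 and Scd2. Of those of Scd2, 3.97% do, most often in Scd1 and Scd3, so a small part of their reads could be placed at another gene. Scd3 had 0 counts in every library, and Scd4 had between 0 and 2.

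Elovl6 (ENSMUSG00000041220, chromosome 3, 129532355 to 129638495, plus strand) encodes the elongase that extends palmitate to stearate. It had 51 and 54 counts (WT) and 134 and 173 counts (KO). The WT libraries were close together, and both KO libraries exceeded them by more than the spread within either genotype. The level was 3.27 ± 0.173 in WT against 7.99 ± 1.13 CPM in KO (mean ± SD, n = 2 each), 2.45-fold higher, and the log2 fold change was 1.29 (SE 0.30, edgeR adjusted p 0.342). Unlike in most other fatty acid genes, the log2 ratio was not smaller between the libraries numbered 2 (1.37) than between those numbered 1 (1.18).

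Fads2 and Fads1, close together on chromosome 19, encode the delta-6 and delta-5 desaturases that make arachidonate and other polyunsaturated fatty acids. Fads2 (ENSMUSG00000024665, 10064164 to 10101503, minus strand) had counts of 13 and 19 in WT, against 66 and 56 in KO, the lowest counts of the 33 genes. Its level was 0.997 ± 0.276 in WT against 3.19 ± 0.493 CPM in KO (mean ± SD, n = 2 each), 3.20-fold higher. The log2 fold change, 1.67 (SE 0.41, edgeR adjusted p 0.374), was the largest of the 33. Fads1 (ENSMUSG00000010663, 10182888 to 10196870, plus strand) had 422 and 300 counts in WT libraries against 674 and 543 in KO libraries. Its log2 fold change was 0.51 (SE 0.28, edgeR adjusted p 0.866), with an interval from -0.20 to 1.21, although the libraries of the genotypes did not overlap and the log2 ratio was 0.47 and 0.55 within the numbers. Leaving out 1 library at a time gave 0.26 (WT replicate 2 left out) to 0.76 (WT replicate 1 left out).

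The enzymes that make palmitate and its precursors differed less than Fads2, Scd2, Elovl6 and Scd1 in the main fit. Fasn exceeded Scd1, however, between the libraries numbered 2 (log2 ratio 0.69 against 0.54) and without KO replicate 1 (log2 fold change 0.94 against 0.74). Fasn (ENSMUSG00000025153, chromosome 11, 120805846 to 120824547, minus strand) encodes fatty acid synthase, which builds palmitate from malonyl-CoA. It had 62 and 89 counts (WT) and 158 and 178 counts (KO), and the log2 fold change was 0.90 (SE 0.32, edgeR adjusted p 0.676). Acaca (ENSMUSG00000020532, chromosome 11, 84129672 to 84401651, plus strand) encodes acetyl-CoA carboxylase, which supplies that malonyl-CoA. It had counts of 157 and 172 in WT, against 361 and 291 in KO, and its log2 fold change was 0.74 (SE 0.27, edgeR adjusted p 0.678). Of the 50-base stretches of its transcripts, 30.4% also occur in other genes, most often the predicted genes Gm5182 and Gm42553. Its counts are thus less certain than those of Fasn, which shared none.

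Acly (ENSMUSG00000020917, chromosome 11, 100476353 to 100528000, minus strand) encodes ATP-citrate lyase, which makes the cytosolic acetyl-CoA that both routes use. It had 1692 and 2325 counts in WT libraries against 2728 and 2980 in KO libraries, the most of the fatty acid genes. After scaling, WT replicate 2 and KO replicate 1 were almost level, at 145.9 and 146.4 CPM. The log2 fold change was 0.25 (SE 0.26, edgeR adjusted p 0.961), and it was 0.030 without WT replicate 1. Acly was the fatty acid gene with the narrowest gap between the genotypes.

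**Figure D2:**
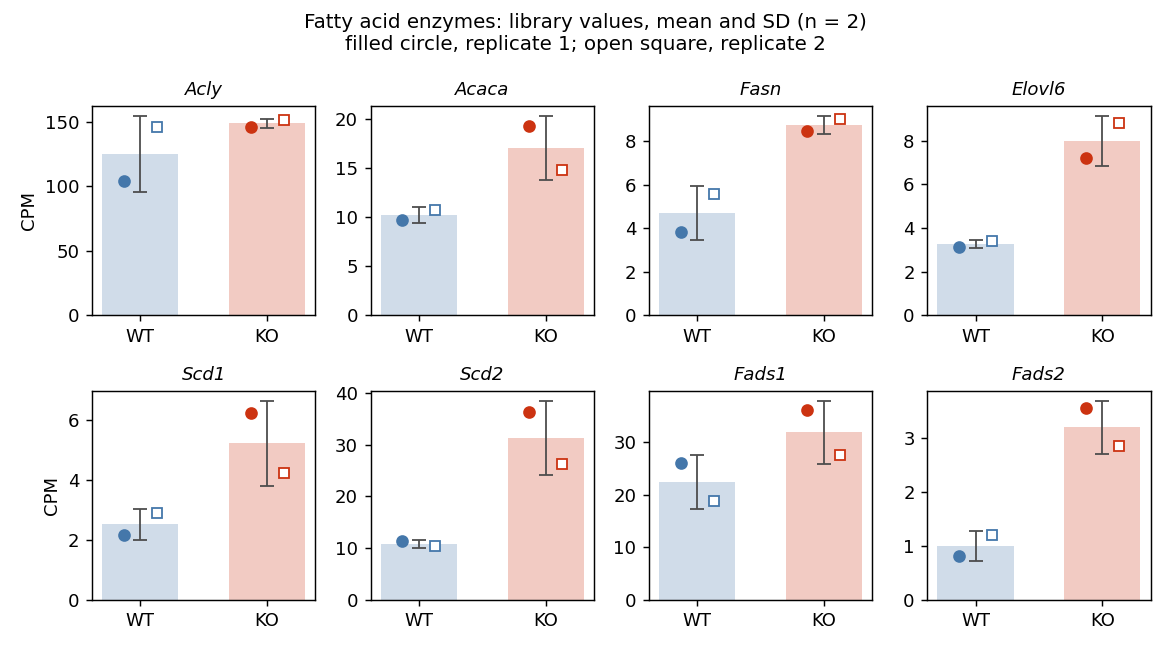
CPM of the 8 fatty acid genes in each library, with WT and KO in different colours. Both KO libraries lie above both WT libraries in every gene, by a wide margin in Scd2, Elovl6 and Fads2 and narrowly in Acly.

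Genes of different length differed in their median fold change. The 500 genes nearest in length to Acaca, the longest of the fatty acid genes, had a median log2 ratio of 0.45 between the libraries numbered 1 and 0.025 between those numbered 2. Their median log2 fold change was 0.22, that of the genes nearest to Fasn 0.19 and that of those nearest to Elovl6 0.15. The 500 nearest to Fads2 had -0.24. Length here is the length that count and FPKM imply, which was 1508 bases for Fads2. Removing a loess trend with length from each library left a median of 0.86 over the fatty acid genes and 0.11 over the sterol enzymes, and it lowered Acaca to 0.49 and raised Fads2 to 1.89. On the log2(FPKM + 1) scale, which understates the change of low genes, the medians were 0.49 and 0.23, with 0.11 over all genes.

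Of the 8 mevalonate enzymes, Acat2 alone had both KO libraries above both WT libraries, against 20.0% of all tested genes, and the median log2 fold change was 0.054. Hmgcs1 (ENSMUSG00000093930, chromosome 13, 119690462 to 119708086, plus strand) encodes the synthase that joins acetyl-CoA to acetoacetyl-CoA early in the route. It had 1417 and 2139 counts (WT) and 2262 and 3093 counts (KO), and its log2 fold change was 0.33 (SE 0.31, 95% interval -0.46 to 1.12). The genotypes overlapped, since KO replicate 1 (121 CPM) lay below WT replicate 2 (134 CPM). Idi1, the isomerase that interconverts the basic isoprenoid units, had counts of 808 and 1306 in WT, against 1036 and 1784 in KO, so that both libraries numbered 2 lay above both numbered 1.

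Acat2, which joins acetyl-CoA units at the start of the route, had 138 and 166 counts in WT libraries against 206 and 258 in KO libraries (log2 fold change 0.35, SE 0.27). Of its 50-base stretches 39.1% also occur in Acat3, so this value is uncertain. Mvk, the kinase that phosphorylates mevalonate, had 367 and 225 counts (WT) and 377 and 333 counts (KO), and went the other way by number: both libraries numbered 2 were lower. The kinase Pmvk (-0.07), the decarboxylase Mvd (0.01), the farnesyl diphosphate synthase Fdps (0.09) and the geranylgeranyl diphosphate synthase Ggps1 (-0.09) had log2 fold changes near 0. Of the stretches of Fdps 26.2%, and of Idi1 17.7%, also occur in other genes.

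From squalene to cholesterol the median log2 fold change over 11 genes was 0.21, and the adjusted p of no sterol enzyme was below 0.928. Cyp51 (ENSMUSG00000001467, chromosome 5, 4081145 to 4104746, minus strand), the lanosterol demethylase, had counts of 1001 and 1593 in WT, against 1535 and 2428 in KO. Its log2 fold change was 0.35 (SE 0.35), but WT replicate 2 (100 CPM) exceeded KO replicate 1 (82.4 CPM), and the value was 0.020 with KO replicate 2 left out and 0.70 with WT replicate 2 left out. Hsd17b7, a reductase of the demethylation steps, had the largest difference of the sterol enzymes, 0.57 (SE 0.44), from 97 and 217 counts in WT libraries against 246 and 313 in KO libraries. WT replicate 1 stood low, and the log2 ratio was 1.14 between the libraries numbered 1 and 0.22 between those numbered 2.

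Of these 11 genes, 2 (Lss and Sc5d) had both KO libraries above both WT libraries, against 20.0% of all tested genes. Lss, the cyclase that forms lanosterol, had 264 and 248 counts (WT) and 407 and 352 counts (KO), and its log2 fold change was 0.32 (SE 0.23). Sc5d, a desaturase of the late steps, had counts of 1450 and 1401 in WT, against 1783 and 2104 in KO (log2 fold change 0.19, SE 0.22). In the other direction, Tm7sf2, the sterol C14-reductase, was the only one of the 33 genes with both KO libraries below both WT libraries, against 16.9% of all tested genes. It had 80 and 74 counts in WT libraries against 81 and 76 in KO libraries, close to equal before scaling, and a log2 fold change of -0.22 (SE 0.30). Its transcripts shared 9.87% of their stretches with Vps51, which overlaps it on the same strand.

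The remaining sterol genes overlapped between the genotypes. Squalene synthase Fdft1 (0.33), squalene epoxidase Sqle (0.21) and Dhcr7 (0.31), a reductase of the last steps, had log2 fold changes above 0. Fdft1 overlaps Ctsb on the opposite strand, which had 368526 to 424544 counts per library against 595 to 1215 for Fdft1, and whether counting used the strand is not stated. The same question holds for Cyp51 (opposite Akap9, 399 to 742 counts), Ggps1 (opposite Arid4b, 438 to 673) and Srebf1 (opposite Rai1, 71 to 139). The methyl oxidase Msmo1 (-0.18), the isomerase Ebp (-0.13) and the dehydrogenase Nsdhl (0.07) had intervals on both sides of 0, as had all 19 sterol enzymes. Msmo1 had 2018 and 1534 counts (WT) and 1673 and 2069 counts (KO), so the order of the genotypes turned between the numbers. Leaving out 1 library turned the sign of 11 of the 19 sterol enzymes and of 0 of the 8 fatty acid enzymes. For the fatty acid enzymes, whose libraries did not overlap between the genotypes, this follows from that order, apart from rescaling.

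**Figure D3:**
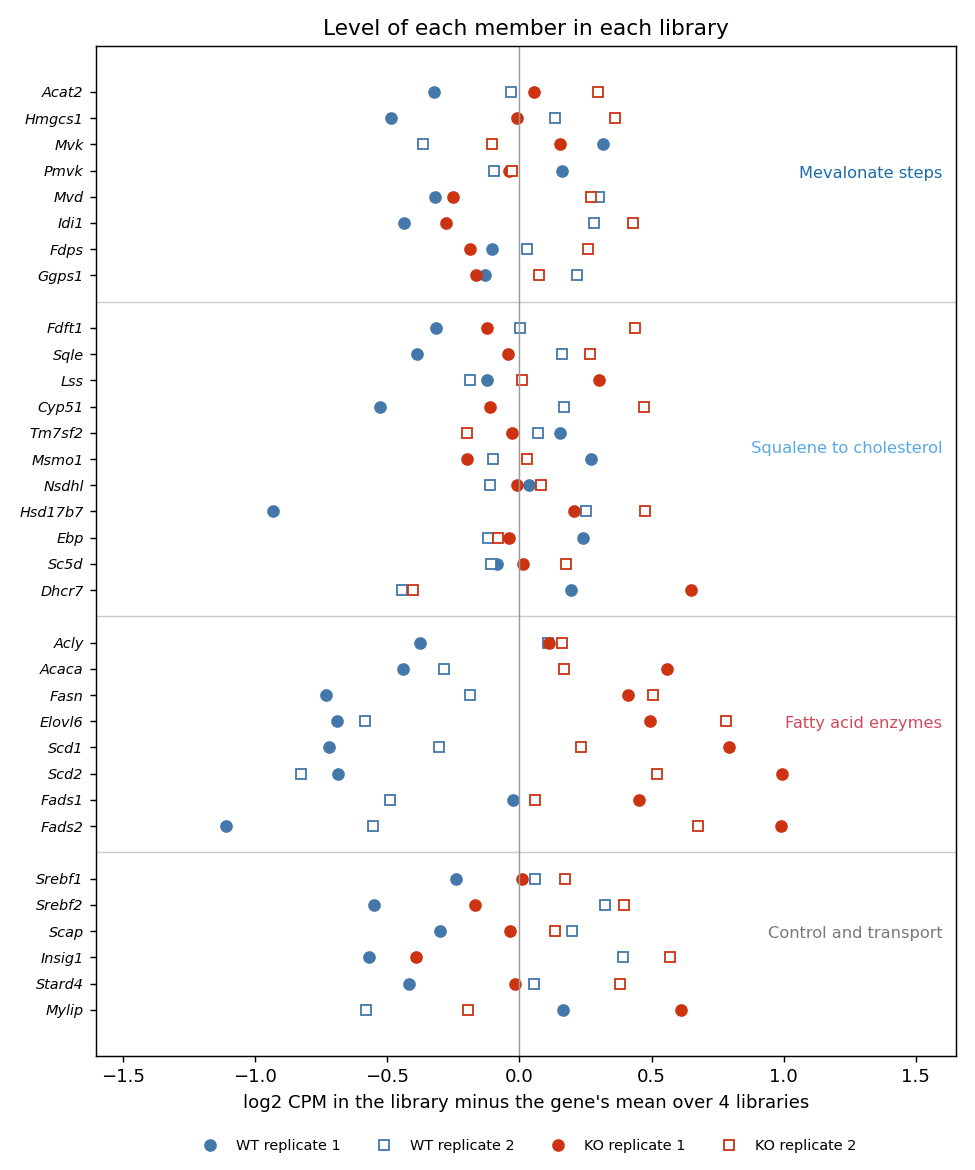
Log2 CPM of each of the 33 genes in each of the 4 libraries as the difference from the gene's own mean over the libraries, grouped by role. The fatty acid genes have a median of -0.69 and -0.40 in the WT libraries and 0.53 and 0.37 in KO libraries, while the library medians of the sterol enzymes lie between -0.12 and 0.17 and single sterol enzymes spread wider.

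None of the 6 genes of sterol sensing and transport separated the genotypes, where 20.0% of all tested genes had both KO libraries above and 16.9% both below. By replicate number, 5 of the 6 had both libraries numbered 2 above both numbered 1 and 1 had both below, against 25.2% and 23.2% of all tested genes. Insig1, the retention protein that is itself a sensitive SREBP target, had counts of 1294 and 2477 in WT, against 1682 and 3458 in KO. Its log2 difference was 0.96 between the numbers (number 2 higher) and 0.18 between the genotypes. Srebf2 had 854 and 1535 counts in WT libraries against 1278 and 1994 in KO libraries, 0.72 between the numbers and 0.23 between the genotypes. Srebf1, whose product acts mainly on fatty acid genes, had 357 and 431 counts (WT) and 487 and 577 counts (KO), with a log2 fold change of 0.18 (SE 0.23) and an interval from -0.41 to 0.76. It thus did not share the separation seen in the fatty acid enzymes. These counts do not show which of the SREBP1 isoforms was expressed.

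Scap, the escort protein, differed least by genotype in this group, with a log2 fold change of 0.08 (SE 0.26). Stard4, a carrier of cholesterol between membranes, had counts of 413 and 564 in WT, against 627 and 874 in KO (log2 fold change 0.36, SE 0.28). Mylip, a ubiquitin ligase and LXR target, ran opposite to the others by number. It had 217 and 127 counts in WT libraries against 340 and 205 in KO libraries, so both libraries numbered 2 were lower, and its log2 fold change was 0.42 (SE 0.41).

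The same genes were also compared by replicate number. Both libraries numbered 2 lay above both numbered 1 in 9 of the 19 sterol enzymes and in 0 of the 8 fatty acid enzymes, against 25.2% of all tested genes. They lay below in 3 of the 19 and 0 of the 8, against 23.2%. The difference between the mean log2 CPM of the genotypes was larger than that between the numbers in 6 of the 19 sterol enzymes, 0 of the 6 sensing and transport genes and 8 of the 8 fatty acid enzymes, against 45.4% of all tested genes. For genes whose libraries do not overlap between the genotypes, as in all 8 fatty acid enzymes, that order follows by arithmetic, and likewise for genes whose libraries do not overlap between the numbers, so these counts restate the orders already given. For Acly these differences were almost equal, at 0.271 and 0.266. Each genotype has 1 library of each number.

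**Figure D4:**
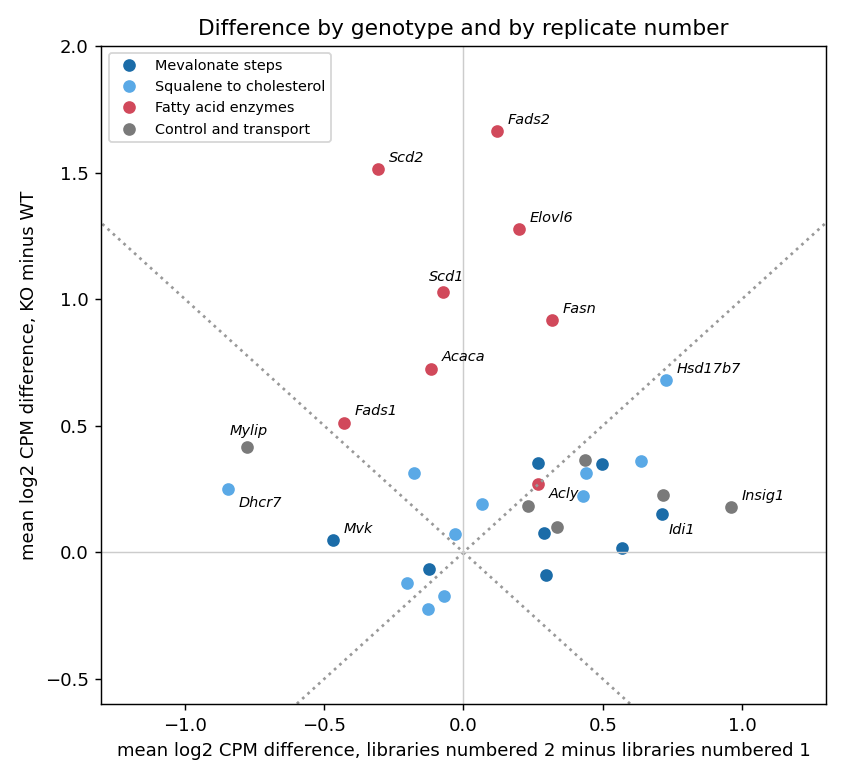
Mean log2 CPM difference between the genotypes (KO minus WT, vertical) against that between the replicate numbers (2 minus 1, horizontal) for the 33 genes, coloured by role, with lines where both are equal in size. The fatty acid genes lie above the lines, with Acly on one of them, and the sensing and transport genes, with most sterol enzymes, lie to the sides.

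Levels of different genes were compared per length, by the deposited FPKM (fragments scaled by gene length and by library total). Averaged over the 4 libraries, Hmgcs1 had 38.8 FPKM, Insig1 36.1, Sc5d 28.1 and Ebp 17.8, followed by Mvd, Cyp51 and Acly. The lowest were Fasn at 0.491, Elovl6 at 0.519, Tm7sf2 at 0.622 and Acaca at 0.687 FPKM. The median was 8.84 FPKM for the sterol enzymes and 1.13 FPKM for the fatty acid enzymes, and Acly (16.8) and Fads1 (7.98) were the highest of the latter. Scd2 had 1.98 and 1.78 FPKM in WT and 7.43 and 4.79 FPKM in KO.

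Other genes of these routes gave a wider view. Of 47 listed, 41 were tested, and their median log2 fold change was 0.15, with 33 above 0, 11 with both KO libraries above both WT libraries and 0 with both below. Over all tested genes these shares were 20.0% and 16.9%. The quasi-likelihood test called 0 of them, and 0 had an unadjusted p under 0.05. On the sterol side 18 of these genes were tested, with a median log2 fold change of 0.16. Of the 18, 5 had both KO libraries above both WT libraries, and 6 had both libraries numbered 2 above both numbered 1, against 20.0% and 25.2% of all tested genes.

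Of the listed fatty acid genes outside the 8, 23 were tested, with a median log2 fold change of 0.15 (from -0.30 to 1.15), and 6 had both KO libraries above both WT libraries, against 20.0% of all tested genes. Me1, the malic enzyme that supplies NADPH, had a log2 fold change of 0.64 (SE 0.43), and Elovl5, an elongase of polyunsaturated fatty acids, had 0.30 (SE 0.27). Acss2, which makes acetyl-CoA from acetate, had -0.02 (SE 0.34). Acsl1, which activates long-chain fatty acids, had -0.30 (SE 0.48). The carboxylase paralogue Acacb had between 0 and 7 counts per library and was not tested.

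Markers of other cell types were measured in the same libraries. The 10 macrophage genes summed to between 27556 and 31844 CPM in every library, most of it from Lyz2 (16869 to 21870 CPM). Itgam, which the table holds as 2 genes, gave 11 rows for this list: 2 had a log2 fold change above 0, 1 had both KO libraries above both WT libraries, and 3 (Cd68, C1qa and Aif1) had both below, against 20.0% and 16.9% of all tested genes, with log2 fold changes of -0.18, -0.52 and -0.93. The 10 stromal genes, among them Col1a2, Dcn and Pdgfra, summed to 106 and 120 CPM in WT and to 481 and 447 CPM in KO, and 9 of the 10 had both KO libraries above both WT libraries, against 20.0% of all tested genes. The stromal sum thus moved with the fatty acid enzymes, and its part in their difference was not tested. Of the 10 adipocyte genes, Adipoq, Plin1, Cidec, Lep and Cfd were at 0 counts in every library and Slc2a4 at no more than 1, and the sum of the list was 1646 and 552 CPM in WT and 907 and 509 CPM in KO. Fabp4, which macrophages also express, carried most of it (1422 and 436 CPM in WT, against 699.7 and 387 in KO), and of the 4 tested genes 0 had both KO libraries above or below both WT libraries.

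The 10 neutrophil genes summed to 29.0 and 26.2 CPM in WT and to 8.53 and 12.0 CPM in KO, with the defining genes Mpo and Elane at 0 counts in all libraries and Ly6g at no more than 1. Of the 4 neutrophil genes tested, 3 had both KO libraries below both WT libraries, against 16.9% of all tested genes: S100a8, Retnlg and S100a9, the last at 91 and 82 counts (WT) against 2 and 1 (KO). Of the 10 proliferation genes, 9 had a log2 fold change above 0 and 7 had both KO libraries above both WT libraries, against 20.0% of all tested genes. Pcna, the exception in sign, carried most of the summed level (438 and 271 CPM in WT, against 260 and 246 in KO). The other 9 summed to 51.8 and 67.3 CPM in WT, against 116 and 106 in KO, and so moved with the fatty acid enzymes. With Pcna the sum was 490 and 339 CPM in WT and 376 and 352 CPM in KO. Of the 10 interferon response genes, 1 (Ch25h) was above 0 and 5 (Ifit3, Isg15, Oasl2, Usp18 and Irf7) had both KO libraries below both WT libraries, against 16.9%, with sums of 99.7 and 260 CPM in WT and 53.1 and 73.5 CPM in KO. The part of these lists in the lipid result was not tested, and in bulk RNA a different number of cells of a type and a different amount of RNA per cell cannot be told apart.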

How the data were processed

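RNA sequencing was performed on 4 macrophage libraries, 2 labelled WT and 2 labelled KO. The submitters' processing notes name HISAT2 2.0.4 and StringTie 1.3.3b, and the study's methods add read filtering with Seqtk. The authors deposited fragment counts per gene, as whole numbers with no normalization, and an FPKM value beside each count. Those FPKM values were scaled by library total without a TMM factor: the gene lengths obtained from count and FPKM were within 0.0040% of each other in the 4 libraries, over 10564 genes. Low counts set the precision of low genes, and reads carried no molecular identifiers. The notes name the build mm39, but 27686 of 34267 gene identifiers shared with GENCODE release M21 had its start and end on GRCm38, 22 of the 33 members among them, so positions are those of the file, on GRCm38. Promoters came from RefSeq on GRCm38.p6.

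The counts were fitted in R 4.3.3 with edgeR 4.0.16: filterByExpr (minimum count 10, minimum total 15), TMM (factors 0.955 and 0.942 for WT, 1.12 and 0.997 for KO), genotype as the only term, the quasi-likelihood test, two-sided, and Benjamini-Hochberg adjustment over 12418 genes. The limits for a call, an adjusted p of 0.05 and a log2 fold change of 1 in size, were those of the study's methods. Within-number log2 ratios had 0.5 counts added. Alternatives were DESeq2 1.42.0 size factors and its Wald test, other filters, the replicate number as a block, each library left out, the edgeR exact test, limma 3.58.1 on log2(FPKM + 1) and log2(FPKM + 0.1), and removal of a loess trend with gene length (span 0.5). Shared sequence was measured in stretches of 50 bases over GENCODE transcripts. The code was tested on simulated data.

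The 33 members and all lists were chosen with earlier results of these data known. The genes to be named were the 33 members, G3bp1, and Acss2, Me1, Acsl1 and Elovl5 of the other pathway genes, plus any called. Some other genes under this rule are not reported here. Of the marker lists, the genes named were chosen after their values were seen, as were Scd3, Scd4, Acacb, Acat3, Vps51, Ctsb, Akap9, Arid4b, Rai1, Gm5182 and Gm42553. Of the other pathway genes, Acacb, Thrsp, Scd3 and Scd4 were among those too low to test, and Marchf6 was not matched.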

Additional observations from a re-analysis of the deposited data

How the results depend on the processing

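With 2 libraries per genotype, none of the members was called in the main test, so the values rest on sizes and on the order of libraries. The fatty acid median exceeded the sterol median under every alternative run, and no sterol enzyme was called in any. Fads2, Scd1, Elovl6 and Fasn rest on low counts. Where 1 library was left out, the lone library was assumed to vary like the other genotype.

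The replicate numbers share a label only. Same-numbered libraries deviated together (correlation 0.71), but with 2 numbers this does not establish pairs. With the number as a replicate block, 664 genes were called (5.35%; 494 higher and 170 lower in KO), among them 4 members: Scd2 (log2 fold change 1.52, adjusted p 5.9e-08), Elovl6 (1.28), Fads2 (1.67) and Scd1 (1.03). With the block and the gene length trend removed, 607 genes were called (4.89%), among them 3 members: Scd2 (1.45), Fads2 (1.90) and Elovl6 (1.12). Scd1 kept an adjusted p of 0.0207 there, at a log2 fold change of 0.99, just under the limit. G3bp1 was -0.60 with the block (adjusted p 0.0853) and -0.70 with the block and the length trend removed (adjusted p 0.00247). There Ggps1 turned to 0.010 and Scap to -0.035.

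The DESeq2 Wald test called 181 genes and the edgeR exact test 229, with 1 member in each, Scd2 (adjusted p 0.00327 and 0.00819), where the main test called 0. Its adjusted p ranged from 9.94e-09 to 1 over all alternatives. In limma on log2(FPKM + 1) the fatty acid median was 0.49 and exceeded the sterol median by 0.25; on log2(FPKM + 0.1) 2 genes were called, no member among them, and the sterol median was 0.30. These FPKM carry no TMM factor, and the median over all genes was 0.11 and 0.18.

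The sign of small differences turned with scaling. Mvk was -0.0276 and Mvd -0.0272 with DESeq2 size factors and likewise -0.0276 and -0.0272 with the Wald test, and -0.0062 and -0.0047 with no filter. On log2(FPKM + 1), Pmvk was 0.072, Ggps1 0.058, Ebp 0.031 and Acss2 0.037, and on log2(FPKM + 0.1) they were 0.086, 0.064, 0.033 and 0.096. With the length trend removed, Mvk was -0.026 and Scap -0.043.

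Leaving out each library in turn called 0 to 1 genes (without WT replicate 1 or 2) and 0 members. The median was 0.10 to 0.46 over all members, 0.81 to 1.20 over the fatty acid enzymes, 0.020 to 0.25 over the sterol enzymes and 0.082 to 0.26 over the other pathway genes, and the fatty acid median exceeded the sterol median by 0.60 (without KO replicate 1) to 1.05. Signs turned within the ranges of Pmvk (-0.23 to 0.064), Mvk (-0.32 to 0.40), Mvd (-0.28 to 0.32), Idi1 (-0.25 to 0.52), Fdps (-0.16 to 0.30), Ggps1 (-0.26 to 0.058), Sqle (-0.042 to 0.47), Msmo1 (-0.39 to 0.018), Nsdhl (-0.034 to 0.15), Ebp (-0.33 to 0.061), Dhcr7 (-0.31 to 0.73), Srebf2 (-0.18 to 0.66), Scap (-0.15 to 0.32), Insig1 (-0.39 to 0.70), Mylip (-0.033 to 0.85), Acss2 (-0.31 to 0.22) and Acsl1 (-0.78 to 0.33). Ranges were wide with no turn of sign in Acly (0.030 to 0.48), Fads1 (0.26 to 0.76), Acat2 (0.21 to 0.47), Hmgcs1 (0.053 to 0.64), Fdft1 (0.017 to 0.59), Cyp51 (0.020 to 0.70), Hsd17b7 (0.096 to 1.25), Lss (0.17 to 0.45), Sc5d (0.10 to 0.27), Tm7sf2 (-0.31 to -0.15), Srebf1 (0.036 to 0.30), Stard4 (0.14 to 0.58), Me1 (0.28 to 1.07), Elovl5 (0.066 to 0.50) and G3bp1 (-1.03 to -0.19). For the counts and signs that moved, the cause was not tested.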
